A study of Mus musculus with 8 samples.

Results

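The genes of DNA replication and of the entry into S phase were followed in the lungs of mice that had breathed ozone or filtered air. They were chosen by name, with earlier results of these data known. The list took every probe set whose annotation names 1 of 46 listed genes alone, older aliases included. Of the 46 genes, 44 were on the array, with 59 of its 12422 probe sets, and 54 probe sets of 41 genes were bright enough to be tested. No probe set named Tyms or Pole alone, so those genes are not analysed here. Mcm6, Prim2 and Ccne2, and a second probe set each of Rfc1 and Rrm1, were above the floor described next on fewer than 2 of 8 arrays.

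Arrays of mouse oligonucleotides were hybridised with RNA of whole lung, and each of the following 4 groups had 2: C3H/HeOuJ in ozone, C3H/HeOuJ in filtered air, C3H/HeJ in ozone and C3H/HeJ in filtered air. The substrains are closely related, and C3H/HeJ carries a defective Tlr4, the receptor for endotoxin. The labels state 72 h for both HeOuJ groups and no time for the HeJ groups, and no ozone concentration, age, sex or number of animals was given. They name the arrays of a group 1a and 1b without tying them to animals. The p-values here thus reflect only how far the arrays of a group spread, which may be technical. Values are intensities on a linear scale, which are not comparable between probe sets; values below a floor of 69.6 were raised to it before log2 was taken. With 2 arrays a group, the median standard error (SE) of a log2 change was 0.30.

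Before S phase, the origin recognition complex marks the sites where replication can start. Cdc6 and Cdt1 then load the MCM helicase onto them, a step called licensing. Cyclins D and E with their kinases release the E2F factors from RB, and E2F in turn drives the transcription of many licensing, polymerase and nucleotide genes. Few cells divide in the resting adult lung, and the epithelium of airways and alveoli is known to proliferate after injury by inhaled oxidants.

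Of the 41 genes tested, 4 had all 4 ozone arrays above all 4 air arrays: Mcm5 and Mcm7, which encode helicase subunits, Pcna, which encodes the sliding clamp, and Rrm2, which encodes the small subunit of ribonucleotide reductase. Their promoters are shown because their ozone and air arrays did not overlap in either strain or across them. Each is the RefSeq window (GRCm38.p6) of 300 bases, from 250 before to 50 after the start of the gene, written 5′ to 3′ along the gene's strand. Capitals mark matches to the E2F letters TTTNNCGC on either strand. The windows lie at chr8:75109259-75109558 on the plus strand for Mcm5, chr5:138171834-138172133 on the minus strand for Mcm7, chr2:132253131-132253430 on the minus strand for Pcna and chr12:24708004-24708303 on the plus strand for Rrm2.
Mcm5: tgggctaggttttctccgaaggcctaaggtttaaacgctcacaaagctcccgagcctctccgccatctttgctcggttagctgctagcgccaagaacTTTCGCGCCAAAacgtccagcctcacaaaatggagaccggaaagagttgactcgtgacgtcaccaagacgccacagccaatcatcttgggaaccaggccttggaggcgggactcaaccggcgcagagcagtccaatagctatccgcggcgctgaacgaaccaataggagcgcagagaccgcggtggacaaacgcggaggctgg
Mcm7: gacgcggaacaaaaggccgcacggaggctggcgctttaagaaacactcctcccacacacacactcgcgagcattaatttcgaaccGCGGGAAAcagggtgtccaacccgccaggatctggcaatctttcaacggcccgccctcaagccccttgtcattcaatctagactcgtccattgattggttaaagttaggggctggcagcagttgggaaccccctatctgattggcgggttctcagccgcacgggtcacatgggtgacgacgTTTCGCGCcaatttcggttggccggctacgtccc
Pcna: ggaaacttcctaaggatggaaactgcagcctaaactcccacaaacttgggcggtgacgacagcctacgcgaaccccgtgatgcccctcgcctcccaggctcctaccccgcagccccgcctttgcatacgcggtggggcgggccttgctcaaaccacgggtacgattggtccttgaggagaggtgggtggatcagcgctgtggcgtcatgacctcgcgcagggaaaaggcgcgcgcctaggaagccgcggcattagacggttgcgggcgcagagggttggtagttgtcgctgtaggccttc
Rrm2: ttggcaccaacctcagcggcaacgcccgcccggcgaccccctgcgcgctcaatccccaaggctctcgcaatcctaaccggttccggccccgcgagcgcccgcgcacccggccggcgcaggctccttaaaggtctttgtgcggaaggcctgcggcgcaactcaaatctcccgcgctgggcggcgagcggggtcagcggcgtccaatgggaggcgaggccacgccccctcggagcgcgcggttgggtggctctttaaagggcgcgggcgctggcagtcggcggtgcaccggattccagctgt

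The Mcm5 window held 2 overlapping matches, TTTCGCGC and GCGCCAAA, and the Mcm7 window held GCGGGAAA and TTTCGCGC apart from each other. The windows of Pcna and Rrm2 held none, nor did a second Mcm7 window at chr5:138171217-138171516. A RefSeq window was matched for 38 of the 46 listed genes; Rfc2, Ccnd1, Ccnd2, Ccne2, Gmnn, Mcm4, Pole and Prim2 are named only. A gene was counted once if any of its windows held a match. The E2F letters stood in 13 of the 38 genes (34.2%), against 7.16% of 17492 protein-coding genes. The CCAAT box letters (CCAAT, either strand) stood in 63.2% of the 38 genes against 42.3%, and the GC box letters (GGGCGG, either strand) in 78.9% against 49.2%. The letters TTTGAA of the CHR element, known from late cell cycle genes, stood in 10.5% against 18.5%. Among tested genes with a window, the E2F letters were in 9 of 28 whose mean ozone change over both strains was above 0 and in 2 of 8 whose change was below 0. A match describes the letters of a window and shows no binding.

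No probe set of these genes passed an adjusted p of 0.05 in limma in any of 6 comparisons. For ozone over air in C3H/HeOuJ, 0 of 54 passed, where 0.456% of all 10953 probe sets tested did. The share of all probe sets that passed was 0% for ozone over air in C3H/HeJ, 0.0183% for the mean of both strains and 0% for the difference between the strains' ozone effects. It was 0.0456% for HeOuJ over HeJ in air and 0.977% for HeOuJ over HeJ in ozone. The smallest adjusted p of a listed gene in limma was 0.0554 for Pold2 in the comparison of HeOuJ ozone with HeJ ozone. The levels and changes below are therefore described gene by gene and as counts set beside all genes, with 1 probe set a gene, the one of highest mean.

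In the mean of both strains, 33 of 41 genes (80.5%) were higher in ozone than in air, where 51.8% of all 7629 genes were. The median log2 change was 0.24, against 0.01 for all genes. At an unadjusted p under 0.05 in limma, 6 genes were higher (14.6%, against 4.57% of all genes) and 0 lower (against 4.76%). These were Mcm7, Pcna, Cdc6, Rrm2, Chaf1a and Mcm3. The 4 genes with all ozone arrays above all air arrays were 9.76% of the 41, against 2.16% of all genes, and 0 genes showed the opposite order, against 1.23%. These counts describe the genes as a list, which was drawn up with earlier results of these data known, and were not tested as one.

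**Figure D1:**
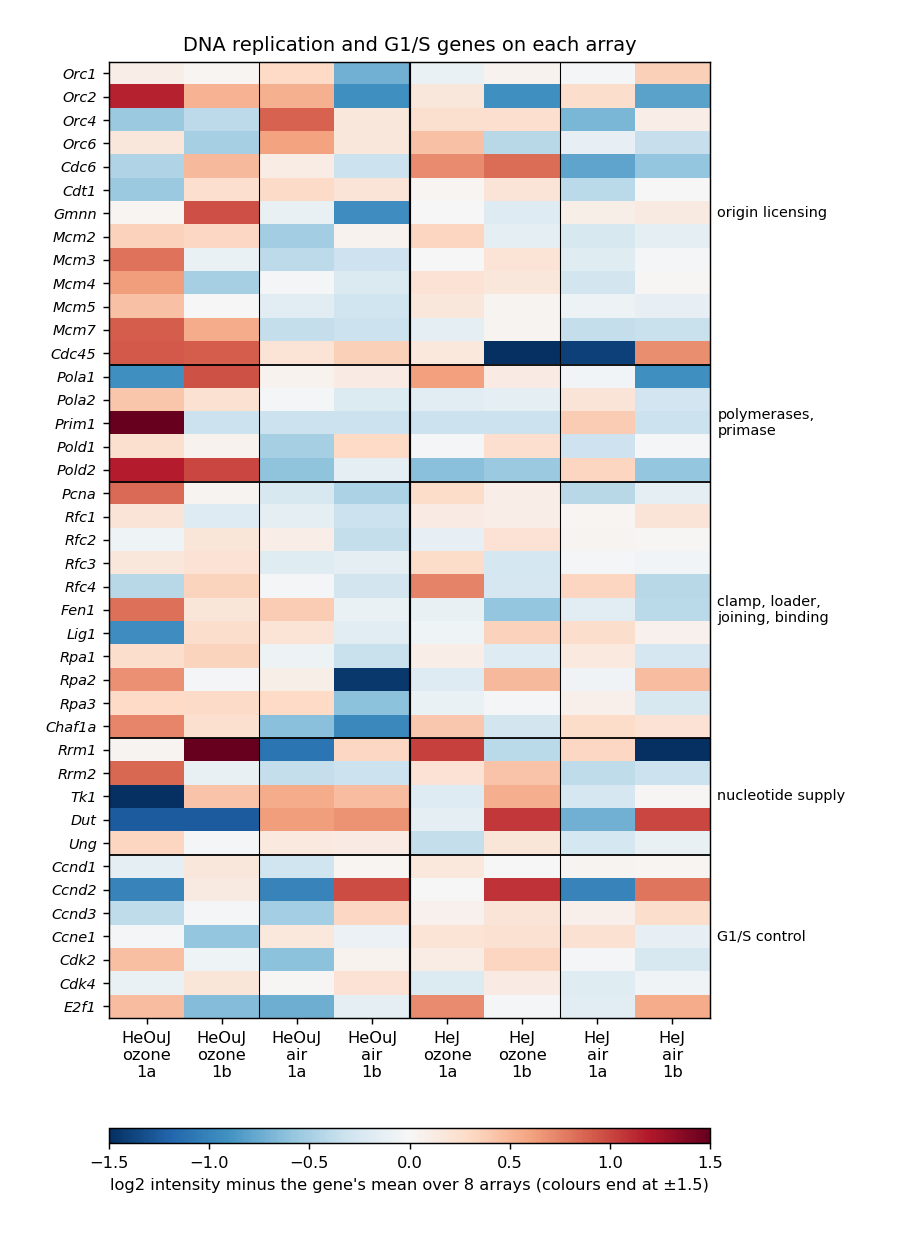
Log2 intensity of each of the 41 tested genes on each of the 8 arrays, minus the gene's own mean, in rows grouped by role, with red for higher and blue for lower. The 2 HeOuJ ozone arrays hold 27 and 26 genes above their own mean and the 2 HeOuJ air arrays 18 and 16, against 25 and 24 on the HeJ ozone arrays and 16 and 16 on the HeJ air arrays.

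Taken strain by strain, 30 of 41 genes (73.2%) were higher in HeOuJ ozone than in HeOuJ air, with a median log2 change of 0.34, against 51.5% and 0.02 for all genes. In C3H/HeJ, 28 of 41 (68.3%) were higher in ozone, with a median of 0.14, against 51.5% and 0.00 for all genes. The 2 strains share no arrays, and 19 genes (46.3%) were higher in both, where 25.8% of all genes were. A share of this size can arise from the shares of the 2 strains (73.2% and 68.3%) alone. It does not show that the same genes moved in both. At an unadjusted p under 0.05 in limma, 7 genes were higher and 2 lower in HeOuJ ozone (17.1% and 4.88%, against 8.06% and 8.49% of all genes). In HeJ ozone 1 was higher and 0 lower (2.44% and 0%, against 2.45% and 1.95%). The difference between the strains' ozone effects did not pass for any gene.

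The ozone and air arrays did not overlap for 13 genes that were higher in HeOuJ ozone (31.7%, against 22.9% of all genes) and for 3 that were lower (7.32%, against 20%). In C3H/HeJ the arrays did not overlap for 11 higher genes (26.8%, against 18.5%) and 1 lower (2.44%, against 17.1%). For 5 genes the ozone arrays were above the air arrays within each strain (12.2%, against 3.92% of all genes): Mcm3, Mcm5, Mcm7, Pcna and Rrm2. For 0 genes they were below in both strains, against 3.07% of all genes.

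A summary over the genes put the 4 ozone arrays above the 4 air arrays. The median deviation of the 41 genes from their own means was 0.24 and 0.18 (log2) on the HeOuJ ozone arrays and -0.03 and -0.15 on the HeOuJ air arrays. It was 0.11 and 0.10 on the HeJ ozone arrays and -0.05 and -0.05 on the HeJ air arrays. The median of all genes stayed between -0.02 and 0.04 on every array. In whole lung, more cells that hold a transcript and more transcript in each cell cannot be told apart.

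**Figure D2:**
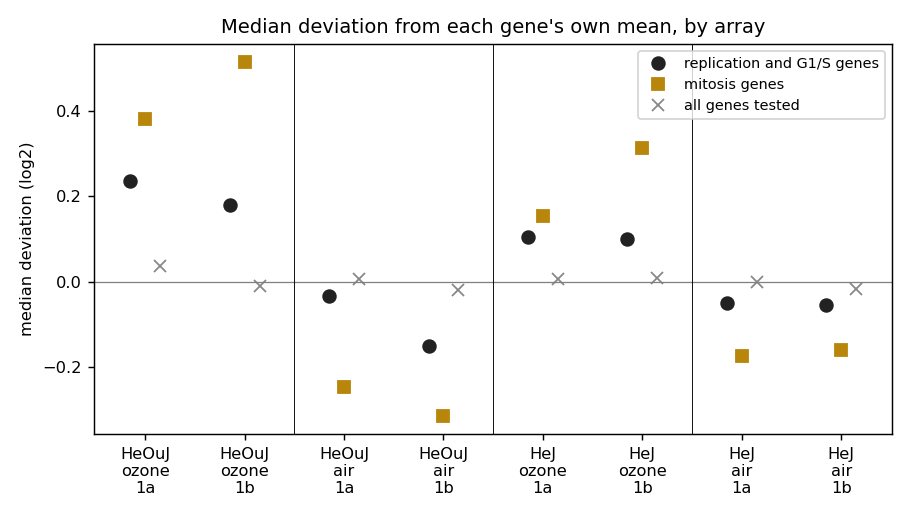
Median log2 deviation from each gene's own mean on each of the 8 arrays, for the 41 replication and G1/S genes (circles), 26 mitosis genes (squares) and all 7629 genes tested (crosses). The replication genes lie at 0.10 to 0.24 on the 4 ozone arrays and at -0.15 to -0.03 on the 4 air arrays, while all genes lie near 0.

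The HeOuJ ozone arrays differed from the others in measures of the arrays and of the tissue. The actin control ratio, the intensity of its 5′ probe set over that of its 3′ one, stood at 0.766 and 0.756 there, against 0.598 and 0.603 on the HeOuJ air arrays, and 0.432 to 0.530 on the 4 HeJ arrays. That of Gapdh was 1.34 and 1.18, against 1.06 and 0.853 on the HeOuJ air arrays. The rank correlation of the 2 arrays was 0.931 in HeOuJ ozone and 0.952 to 0.961 in the other groups.

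Markers of lung and of other cells are given as summed intensities, which the brightest probe sets set, and as counts of genes. Of 9 lung markers 7 were on the array and none lay at the floor on all arrays; their sums were 215002 to 226943 in HeOuJ ozone, 145472 to 171625 in HeOuJ air, 149544 to 172312 in HeJ ozone and 162598 to 195962 in HeJ air. Gene by gene, 3 of the 7 were higher in HeOuJ ozone than in HeOuJ air (median log2 change -0.19) and 2 of 7 in HeJ ozone (-0.13), so the sums and the medians differ in sign in HeOuJ. Erythroid markers (5 of 7 on the array) summed to 54939 to 77240 in HeOuJ ozone, 38525 to 44050 in HeOuJ air, 43959 to 47035 in HeJ ozone and 35442 to 48257 in HeJ air, with 3 of 5 higher in HeOuJ ozone (median 0.51) and 1 of 5 in HeJ ozone (-0.10). Macrophage markers (9 of 9) summed to 37380 to 42300 in HeOuJ ozone, 30375 to 37714 in HeOuJ air, 24288 to 29434 in HeJ ozone and 28920 to 34162 in HeJ air. Gene by gene, 5 of 9 were lower in HeOuJ ozone (median -0.16), of which Chil3 passed (-1.19, adjusted p 0.0464 in limma), and 9 of 9 were lower in HeJ ozone (median -0.29), of which 0 passed. T cell and thymocyte markers, from cells that can divide, summed to 3283 to 3704 in HeOuJ ozone, 3292 to 3564 in HeOuJ air, 3126 to 3373 in HeJ ozone and 3032 to 3208 in HeJ air, over 10 of 12 markers, with Cd8b1 at the floor on all arrays. Of the 7 tested, 4 were higher in HeOuJ ozone (median 0.06) and 5 in HeJ ozone (0.03). Neutrophil markers (8 of 8) summed to 5744 to 7930 in HeOuJ ozone, 7464 to 8180 in HeOuJ air, 7199 to 8173 in HeJ ozone and 7283 to 7634 in HeJ air, with 5 of 8 higher in HeOuJ ozone (median 0.11) and 6 of 8 in HeJ ozone (0.33). Muscle markers (9 of 9) summed to 21554 to 22130 in HeOuJ ozone, 19192 to 19841 in HeOuJ air, 17301 to 17492 in HeJ ozone and 19800 to 22004 in HeJ air, with 6 of 9 higher in HeOuJ ozone (median 0.16) and 2 of 9 in HeJ ozone (-0.37). B cell markers (6 of 7) summed to 3288 to 4155 in HeOuJ ozone, 3102 to 3368 in HeOuJ air, 2869 to 2949 in HeJ ozone and 3829 to 4105 in HeJ air, with 4 of 5 tested higher in HeOuJ ozone (median 0.08) and 0 of 5 in HeJ ozone (-0.58). The part of these cells in the replication genes' values was not tested. With the actin ratio as a covariate, the median log2 change of the 41 genes was 0.22 in HeOuJ and 0.10 in HeJ, with 28 genes higher in each strain. In the mean of both strains it was 0.27, with 26 of 41 genes higher. The actin ratio differed mainly between groups. Within a group its 2 values were furthest apart in HeJ air (0.498 and 0.432), so the adjustment rests mainly on those 2 arrays. The ratio and the groups cannot be told apart by this fit, which holds for every value given with this covariate.

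Origin licensing genes were mostly higher in ozone. Of 13 tested, 10 were higher in HeOuJ ozone (median log2 change 0.44), 9 in HeJ ozone (0.25) and 10 in the mean of both strains (0.32), and 0 passed in limma. The helicase subunits had the most even direction among them. All 5 tested, Mcm2, Mcm3, Mcm4, Mcm5 and Mcm7, had log2 changes above 0 in both strains. The 2 HeOuJ ozone arrays were not alike. On 1a the 5 genes lay 0.35 to 0.91 (log2) above their own means. On 1b Mcm3, Mcm4 and Mcm5 lay below theirs, at -0.09, -0.50 and -0.01. Over the 8 arrays the 10 pairwise Pearson correlations of the 5 genes were all above 0, with a median of 0.73. The median over all pairs of the 41 genes was 0.08, and over all pairs of genes tested 0.003. The correlations describe levels that share the same 8 arrays and the same group means, and were not tested.

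Mcm7 had intensities of 931 and 726 in HeOuJ ozone, against 386 and 397 in HeOuJ air. It had 451 and 509 in HeJ ozone, against 386 and 391 in HeJ air. All ozone arrays lay above all air arrays, and the air arrays of both strains were nearly level. The log2 change was 1.07 (SE 0.25) in HeOuJ, a 2.10-fold higher level with an adjusted p of 0.0994 in limma, and 0.30 (SE 0.25) in HeJ. In the mean of both strains it was 0.69 (SE 0.17, adjusted p 0.308 in limma).

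Mcm3, another helicase subunit, was read by 2 probe sets. The brighter, 160496_s_at, gave 1554 and 828 in HeOuJ ozone, against 676 and 712 in HeOuJ air, and 880 and 1016 in HeJ ozone, against 777 and 869 in HeJ air. The lower HeJ ozone array was only just above the higher HeJ air array. The mean log2 change over both strains was 0.46 (SE 0.20, adjusted p 0.531 in limma). The second, 100062_at, gave 619 and 461 in HeOuJ ozone, against 213 and 208 in HeOuJ air, and 398 and 387 in HeJ ozone, against 342 and 289 in HeJ air. Here all ozone arrays were above all air arrays. The log2 change was 1.34 (SE 0.30, adjusted p 0.0967 in limma) in HeOuJ and 0.32 (SE 0.30) in HeJ, so both probe sets were higher in ozone, by unequal amounts.

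Mcm5, named here after its values were seen, had 1070 and 782 in HeOuJ ozone, against 707 and 643 in HeOuJ air, and 888 and 814 in HeJ ozone, against 747 and 724 in HeJ air. Its log2 changes were 0.44 (SE 0.21) in HeOuJ and 0.21 (SE 0.21) in HeJ, smaller than those of Mcm7, with all ozone arrays above all air arrays. A second, dimmer probe set, 162102_r_at, scattered between 67.8 and 395 within HeJ ozone alone and gave a mean log2 change of -0.07 (SE 0.59). Mcm2 had log2 changes of 0.57 (SE 0.30) in HeOuJ and 0.28 (SE 0.30) in HeJ, and Mcm4 had 0.19 (SE 0.35) and 0.32 (SE 0.35). Mcm4 intensities were 904 and 415 in HeOuJ ozone, against 573 and 503 in HeOuJ air, so these groups overlapped. They were 680 and 659 in HeJ ozone, against 484.5 and 592 in HeJ air, without overlap.

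Cdc6, the ATPase that joins the origin complex to load the helicase, had the largest ozone change of any listed gene in C3H/HeJ. It had 383 and 418 in HeJ ozone, against 134 and 156 in HeJ air, a log2 change of 1.47 (SE 0.41, unadjusted p 0.0065, adjusted p 0.907 in limma). In HeOuJ it had 171 and 326 in ozone, against 253 and 187 in air, a log2 change of 0.12 (SE 0.41). The HeJ groups were well apart, and the HeOuJ groups overlapped. The difference of the 2 effects, HeOuJ minus HeJ, was -1.35 (SE 0.58, adjusted p 0.431 in limma).

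Cdt1, the partner of Cdc6 in loading, was read differently by its 2 probe sets. The brighter, 94024_at, gave log2 changes of -0.39 (SE 0.30) in HeOuJ and 0.31 (SE 0.30) in HeJ. The other, 161787_f_at, gave 426 and 477 in HeOuJ ozone, against 271 and 279 in HeOuJ air, and 318 and 267 in HeJ ozone, against 147 and 148 in HeJ air. Its groups did not overlap within either strain, and its mean log2 change was 0.85 (SE 0.22, adjusted p 0.324 in limma). The ending f marks probes that match a family of sequences, so these values may hold other transcripts.

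Of the origin recognition complex, Orc4 was lower in HeOuJ ozone, at 271 and 304, against 735 and 448 in HeOuJ air. In HeJ it had 469 and 475 in ozone, against 249 and 427 in air. Each strain's arrays were separate and moved opposite ways, with log2 changes of -1.001 (SE 0.37) in HeOuJ and 0.53 (SE 0.37) in HeJ. The difference of these effects was -1.54 (SE 0.52, adjusted p 0.33 in limma), and in air the HeOuJ level was higher than the HeJ level by 0.82 (SE 0.37, adjusted p 0.881), which was 0.43 without HeJ air 1a, 0.46 without HeOuJ air 1a, 1.17 without HeOuJ air 1b and 1.205 without HeJ air 1b, and 2.15 with the actin ratio as a covariate. Orc1 had log2 changes of 0.28 (SE 0.40) in HeOuJ and -0.19 (SE 0.40) in HeJ, Orc2 1.03 (SE 0.61) and -0.10 (SE 0.61), and Orc6 -0.55 (SE 0.39) and 0.25 (SE 0.39). Orc2 had 294 and 188 in HeOuJ ozone, against 190 and 53.1 in HeOuJ air, so these arrays overlapped. HeOuJ air 1b and HeJ ozone 1b (55.2) were below the floor. A second, dimmer probe set of Orc2, 161651_f_at, had values below the floor in every group. Its log2 changes were 0.72 (SE 0.49) in HeOuJ and 0.23 (SE 0.49) in HeJ.

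Gmnn encodes geminin, which holds Cdt1 back once S phase has begun. It had 194 and 372 in HeOuJ ozone, against 176 and 99.9 in HeOuJ air, and 191 and 166 in HeJ ozone, against 203 and 209 in HeJ air. The arrays of each strain were separate, higher in ozone in HeOuJ and lower in HeJ, with log2 changes of 1.02 (SE 0.45) and -0.21 (SE 0.45). Cdc45, which turns the loaded helicase on, scattered widely, at 480 and 475 in HeOuJ ozone, 292 and 323 in HeOuJ air, 282 and 57.0 in HeJ ozone and 96.2 and 412 in HeJ air. Its HeOuJ arrays did not overlap, and its HeJ values spanned more than the difference between groups.

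**Figure D3:**
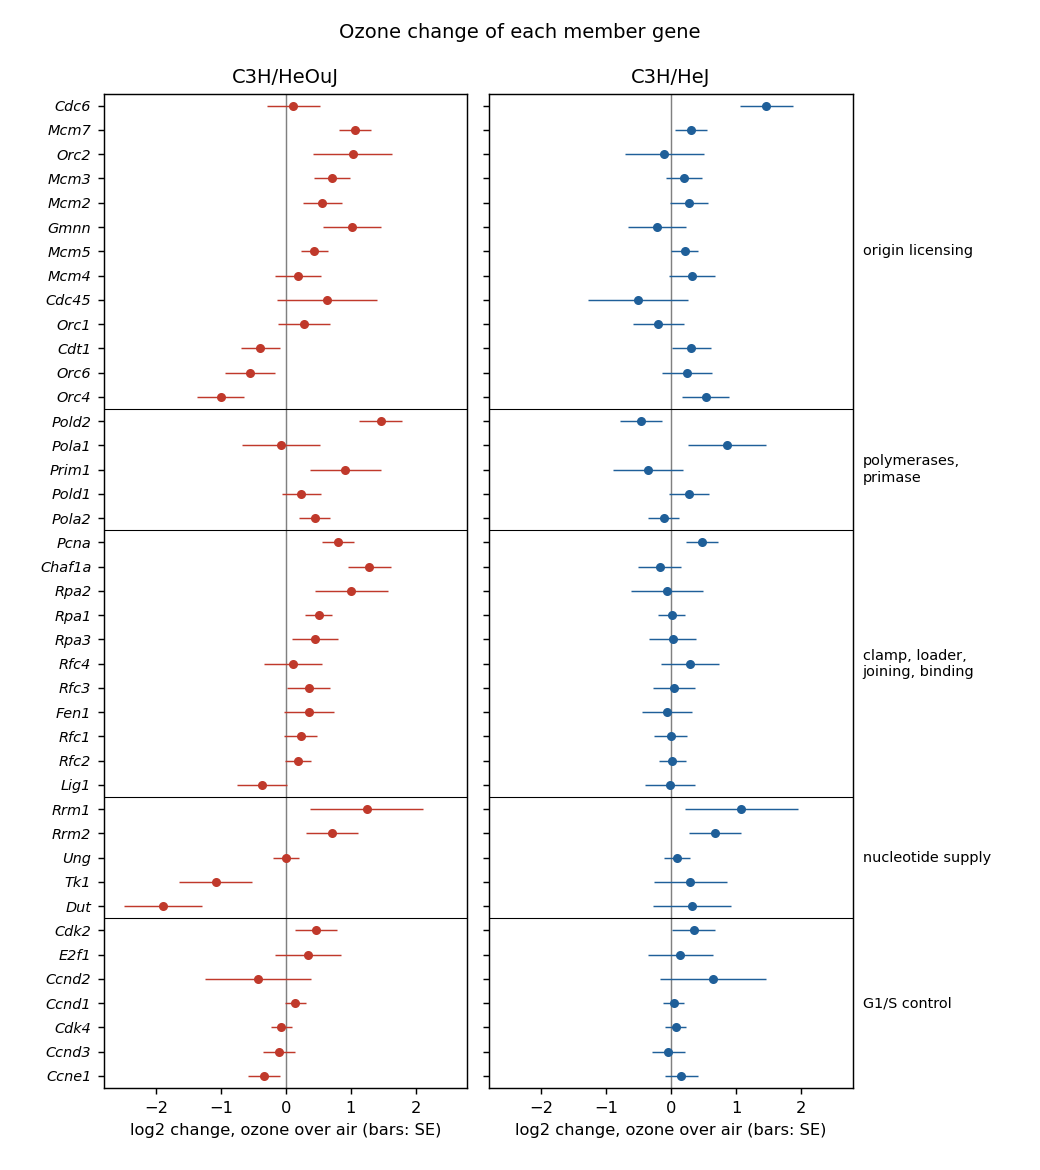
Log2 change of ozone over air for each of the 41 tested genes, grouped by role, in C3H/HeOuJ (left) and C3H/HeJ (right); points are estimates and bars are 1 SE of the limma model. The largest changes are 1.46 for Pold2 and -1.89 for Dut in HeOuJ and 1.47 for Cdc6 in HeJ.

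Of the 13 genes read by 2 tested probe sets, 8 had mean ozone changes of 1 sign and 5 of opposite signs: Cdt1, Lig1, Mcm5, Pold1 and Ung. The mean of both strains hides some differences within a strain. Among the 8, the probe sets of Tk1 and Cdk4 had opposite signs in both strains, and those of Orc2 and E2f1 in HeJ.

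Genes of the polymerases and primase were higher in HeOuJ ozone for 4 of 5 tested (median log2 change 0.44) and in HeJ ozone for 2 of 5 (-0.11). Pold2, which encodes the accessory subunit of polymerase delta, had 1255 and 1108 in HeOuJ ozone, against 364 and 503 in HeOuJ air. It had 357 and 378 in HeJ ozone, against 694 and 370 in HeJ air. The HeOuJ ozone arrays thus stood far above the other 6. The log2 change was 1.46 (SE 0.33, adjusted p 0.0939 in limma) in HeOuJ and -0.46 (SE 0.33) in HeJ, a difference of 1.93 (SE 0.46, adjusted p 0.213 in limma). HeOuJ ozone exceeded HeJ ozone by 1.68 (SE 0.33, adjusted p 0.0554 in limma). This is the single probe set of Pold2, 98155_r_at, and the ending r marks probes for which some design rules were dropped. With the actin ratio as a covariate the HeOuJ change was 0.02 and the strain difference in ozone -0.67. That adjustment rests mainly on the 2 HeJ air arrays, which for Pold2 lay far apart (694 and 370). Its changes in HeOuJ, between the strains in ozone and in the difference of the effects use the same 2 HeOuJ ozone arrays.

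Pold1, the catalytic subunit of polymerase delta, had 648 and 571 in HeOuJ ozone, against 390 and 679 in HeOuJ air, and 544 and 655 in HeJ ozone, against 443 and 546 in HeJ air. The groups overlapped in both strains, and the mean log2 change was 0.26 (SE 0.22, adjusted p 0.752 in limma). Its second probe set, 161528_r_at, gave 284 and 288 in HeOuJ ozone, against 375 and 364 in HeOuJ air, and 448 and 452 in HeJ ozone, against 391 and 449 in HeJ air. It was lower in HeOuJ ozone and gave a mean log2 change of -0.13 (SE 0.19).

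Pola2, the regulatory subunit of polymerase alpha, had 815 and 714 in HeOuJ ozone, against 595 and 529 in HeOuJ air, and 540 and 550 in HeJ ozone, against 697 and 498 in HeJ air. The HeOuJ groups were separate, and the mean log2 change over both strains was 0.17 (SE 0.17, adjusted p 0.804 in limma). Its second probe set, 161739_r_at, gave 419 and 797 in HeOuJ ozone, against 289 and 230 in HeOuJ air, and 505 and 260 in HeJ ozone, against 569 and 565 in HeJ air. These values ran opposite ways in the strains, with a difference of effects of 1.81 (SE 0.59, adjusted p 0.317 in limma). Pola1, the catalytic subunit, had log2 changes of -0.07 (SE 0.60) in HeOuJ and 0.85 (SE 0.60) in HeJ. Prim1, the primase, was above the floor on 1 array of HeOuJ ozone (249) and 1 of HeJ air (113), and no size of change was read from it.

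Genes of the clamp, its loader and the handling of DNA strands were higher in HeOuJ ozone for 10 of 11 tested (median log2 change 0.36) and in HeJ ozone for 6 of 11 (0.01). Pcna, the ring that tethers polymerases to DNA, had 3084 and 1758 in HeOuJ ozone, against 1444 and 1225 in HeOuJ air. It had 2069 and 1833 in HeJ ozone, against 1277 and 1536 in HeJ air. All ozone arrays were above all air arrays, and HeOuJ ozone 1a was the highest of the 8. The log2 change was 0.81 (SE 0.25, adjusted p 0.186 in limma) in HeOuJ, 0.48 (SE 0.25) in HeJ and 0.64 (SE 0.18, adjusted p 0.34 in limma) in the mean of both strains. Of the 41 genes, Pcna followed the median deviation of all 41 across the arrays most closely (Pearson r 0.89 over 8 arrays, a description in which Pcna is itself 1 of the 41), with Mcm7 at 0.89, Mcm5 at 0.88 and Rrm2 at 0.81.

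Chaf1a, the large subunit of the factor that places histones on new DNA, had 693 and 494 in HeOuJ ozone, against 270 and 213 in HeOuJ air. It had 550 and 345 in HeJ ozone, against 502 and 482 in HeJ air. The HeOuJ air arrays were the lowest of the 8, so the HeOuJ change of 1.28 (SE 0.33, adjusted p 0.133 in limma) stood beside a strain difference in air of -1.04 (SE 0.33, adjusted p 0.722 in limma), which uses the same 2 arrays. The HeJ change was -0.18 (SE 0.33), and the difference of the ozone effects was 1.46 (SE 0.47, adjusted p 0.312 in limma).

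Rpa1, the large subunit of the complex that coats single-stranded DNA, had 1127 and 1182 in HeOuJ ozone, against 890 and 743 in HeOuJ air, and 1009 and 821 in HeJ ozone, against 1039 and 787 in HeJ air. The HeOuJ groups were separate and the HeJ groups overlapped; the log2 changes were 0.51 (SE 0.21) and 0.01 (SE 0.21). Its partners Rpa2 and Rpa3 had 1.01 (SE 0.56) and 0.45 (SE 0.36) in HeOuJ and -0.06 (SE 0.56) and 0.02 (SE 0.36) in HeJ. The HeOuJ arrays of both partners overlapped. Rpa2 had 305 and 186 in HeOuJ ozone, against 201 and 46.7 in HeOuJ air, the last below the floor. Rpa3 had 444 and 444 in HeOuJ ozone, against 446 and 237 in HeOuJ air. Both HeOuJ changes thus rested mainly on the low value of HeOuJ air 1b. None of the 3 subunits passed in HeOuJ, with adjusted p-values in limma from 0.287 to 0.583.

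The clamp loader genes Rfc1, Rfc2, Rfc3 and Rfc4 had small log2 changes, from 0.11 to 0.35 in HeOuJ and from -0.005 to 0.29 in HeJ. Fen1, the nuclease that trims Okazaki fragments, had 0.36 (SE 0.39) in HeOuJ and -0.06 (SE 0.39) in HeJ. Lig1, the ligase that seals them, was the exception in HeOuJ at -0.36 (SE 0.38), with -0.02 (SE 0.38) in HeJ. Lig1 had 290 and 662 in HeOuJ ozone, against 639 and 496 in HeOuJ air. These arrays overlapped, and only HeOuJ ozone 1a was below the air arrays. Its second, dimmer probe set, 162004_i_at, had 213 and 171 in HeJ ozone, against 86.0 and 81.6 in HeJ air. That was a log2 change of 1.19 (SE 0.45), which did not pass, and it gave -0.08 (SE 0.45) in HeOuJ.

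Genes of nucleotide supply moved apart from each other: 3 of 5 were higher in HeOuJ ozone (median log2 change 0.01) and 5 of 5 in HeJ ozone (0.32). Rrm2 had 371 and 189 in HeOuJ ozone, against 160 and 164 in HeOuJ air. It had 237 and 276 in HeJ ozone, against 157 and 164 in HeJ air. All ozone arrays were above all air arrays, which agreed closely with each other. The changes were nearly equal in the strains, 0.71 (SE 0.41) in HeOuJ and 0.68 (SE 0.41) in HeJ, with a mean of 0.69 (SE 0.29, adjusted p 0.52 in limma).

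Rrm1, the large subunit of the same enzyme, had 258 and 796 in HeOuJ ozone, against 118 and 310 in HeOuJ air, and 509 and 190 in HeJ ozone, against 310 and 60.7 in HeJ air. Its arrays overlapped in both strains, and the mean log2 change of 1.16 (SE 0.62, adjusted p 0.603 in limma) had the widest error of the named genes. It was 0.62 without HeJ air 1b, 1.70 without HeJ air 1a and -0.57 with the actin ratio as a covariate. Tk1, the S phase thymidine kinase, had 187 and 746 in HeOuJ ozone, against 811 and 765 in HeOuJ air, and 483 and 809 in HeJ ozone, against 466 and 559 in HeJ air. HeOuJ ozone 1a alone stood far below the other arrays. Its second probe set was below the floor on 4 of 8 arrays.

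Dut, which breaks down dUTP and so keeps uracil out of DNA, had the lowest log2 change of any listed gene in HeOuJ. It had 56.3 and 68.9 in HeOuJ ozone, both below the floor, against 255 and 262 in HeOuJ air. It had 149 and 344 in HeJ ozone, against 100.2 and 330 in HeJ air. The HeOuJ level in ozone was at least 3.71-fold lower than in air (adjusted p 0.195 in limma) and at least 3.25-fold lower than in HeJ ozone (adjusted p 0.193 in limma). The log2 difference from HeJ ozone was -1.70, with -1.10 without HeJ ozone 1b, -2.30 without HeJ ozone 1a and 1.48 with the actin ratio as a covariate. Ung, which removes uracil from DNA, had 2455 and 1920 in HeOuJ ozone, 2173 and 2146 in HeOuJ air, 1528 and 2224 in HeJ ozone and 1640 and 1814 in HeJ air, from the probe set 162227_r_at. HeOuJ air exceeded HeJ air by 0.32 (SE 0.20, adjusted p 0.969 in limma). Its second probe set, 102792_at, had 302 and 660 in HeOuJ ozone, 737 and 619 in HeOuJ air, 652 and 554 in HeJ ozone and 441 and 577 in HeJ air, a strain difference in air of 0.42 (SE 0.37).

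**Figure D4:**
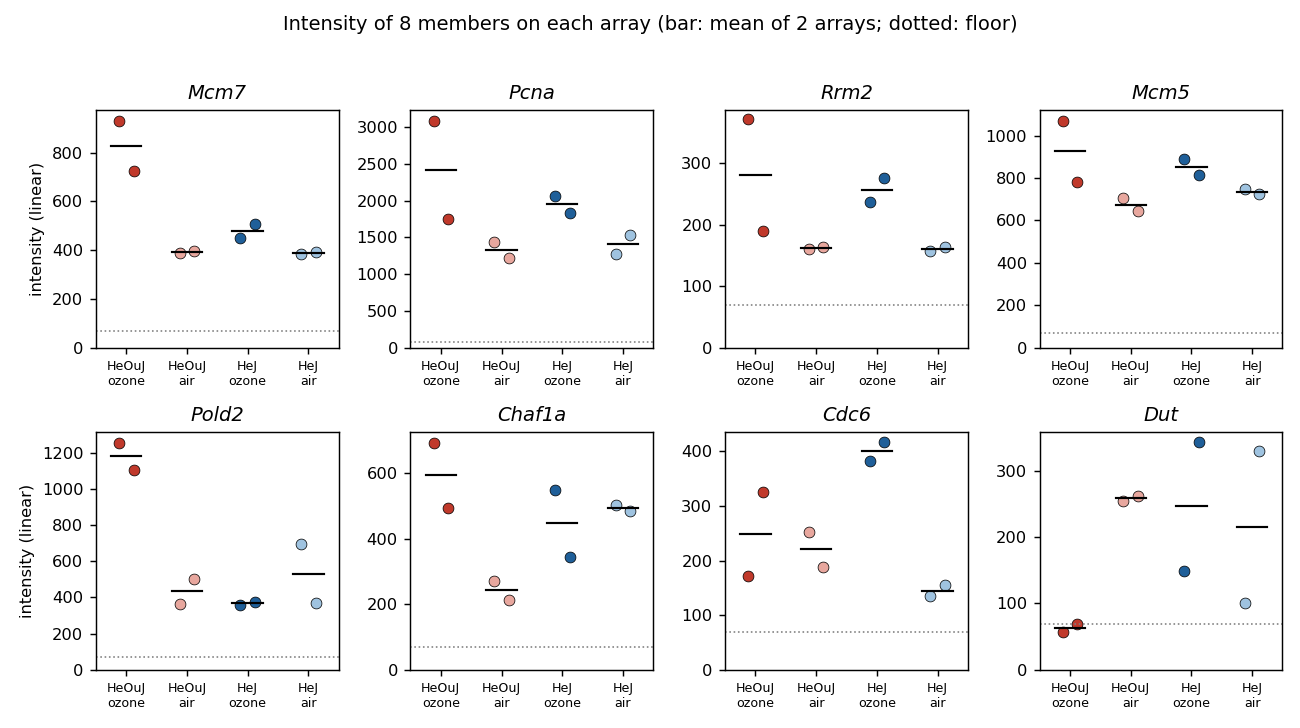
Intensity (linear scale) of 8 genes on each array, with the mean of the 2 arrays of a group as a bar and the floor of 69.6 as a dotted line. In the upper row (Mcm7, Pcna, Rrm2, Mcm5) all ozone arrays lie above all air arrays; in the lower row Pold2 and Chaf1a differ between exposures in HeOuJ, Cdc6 in HeJ, and Dut is below the floor in HeOuJ ozone.

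Genes of G1/S control were mixed in direction. Of 7 tested, 3 were higher in HeOuJ ozone (median log2 change -0.07), 6 in HeJ ozone (0.14) and 5 in the mean of both strains (0.09). Cdk2, the kinase that works with cyclin E at S phase entry, had 577 and 403 in HeOuJ ozone, against 277 and 440 in HeOuJ air, and 458 and 530 in HeJ ozone, against 415 and 359 in HeJ air. The HeJ groups were separate and the HeOuJ groups overlapped; the mean log2 change was 0.41 (SE 0.23, adjusted p 0.631 in limma), and 0.01 with the actin ratio as a covariate. A second probe set, 94411_at, was above the floor on 1 array of each ozone group (124 in HeOuJ and 77.5 in HeJ) and on 0 air arrays.

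Ccnd1, the D cyclin that responds to growth factors, had 2846 and 3517 in HeOuJ ozone, against 2554 and 3206 in HeOuJ air, and 3502 and 3127 in HeJ ozone, against 3223 and 3205 in HeJ air. The groups overlapped in both strains, and the mean log2 change was 0.09 (SE 0.11, adjusted p 0.842 in limma). The second probe set, 94231_at, had 743 and 789 in HeOuJ ozone, against 415 and 685 in HeOuJ air, and 525 and 555 in HeJ ozone, against 436 and 412 in HeJ air. It was separate within each strain, with a mean log2 change of 0.44 (SE 0.19, adjusted p 0.548 in limma), more than the brighter probe set showed.

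E2f1, the transcription factor that drives S phase genes, had 359 and 165 in HeOuJ ozone, against 157 and 234 in HeOuJ air, and 424 and 254 in HeJ ozone, against 231 and 381 in HeJ air. The arrays of a group differed by more than the groups, with a mean log2 change of 0.24 (SE 0.36, adjusted p 0.87 in limma), and 1.15 with the actin ratio as a covariate. These values are from 161427_f_at, whose ending f marks probes that match a family of sequences, so they may hold other transcripts. The second probe set, 102963_at, had 171 and 90.0 in HeOuJ ozone, against 48.1 and 18.9 in HeOuJ air, both below the floor, and 56.8 and 74.6 in HeJ ozone, against 82.6 and 38.5 in HeJ air. It was at least 1.78-fold higher in HeOuJ ozone than in HeOuJ air (adjusted p 0.295 in limma). The kinase gene Cdk4 had a mean log2 change of 0.00 (SE 0.12), cyclin gene Ccnd3 -0.07 (SE 0.18), Ccne1 -0.09 (SE 0.18) and Ccnd2, which was below the floor on 3 arrays, 0.11 (SE 0.57). A second, dimmer probe set of Cdk4, 101017_at, had log2 changes of 0.54 (SE 0.31) in HeOuJ and -0.28 (SE 0.31) in HeJ.

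Between the strains, the genes were level in air and in ozone on the median. In air 18 of 41 were higher in HeOuJ (43.9%, against 50.1% of all genes), with a median log2 difference of -0.07. In ozone 24 of 41 were higher in HeOuJ (58.5%, against 51.5%), with a median of 0.09. At an unadjusted p under 0.05 in limma, Pold2, Mcm7 and Cdc45 were higher in HeOuJ ozone than in HeJ ozone (7.32%, against 8.98% of all genes) and Dut was lower (2.44%, against 9.79%). In air Chaf1a was lower in HeOuJ (2.44%, against 2.81%) and 0 genes were higher (against 3.04%). The arrays of the strains did not overlap in air for 9 genes higher in HeOuJ (22%, against 17.1% of all genes) and 6 lower (14.6%, against 16.9%). In ozone they did not overlap for 9 higher (22%, against 24.6%) and 5 lower (12.2%, against 22.8%). Mcm7 in ozone differed by 0.78 (SE 0.25, adjusted p 0.155 in limma), Cdc45 by 1.77 (SE 0.77, adjusted p 0.276).

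The difference of the ozone effects was above 0, a more positive log2 change in HeOuJ, for 25 of 41 genes (61%, against 52% of all genes), with a median of 0.17. At an unadjusted p under 0.05 in limma, the difference was above 0 for Pold2 and Chaf1a (4.88%, against 5.36% of all genes) and below 0 for Cdc6, Orc4 and Dut (7.32%, against 6.71%). Orc4 was lower with ozone in HeOuJ and higher in HeJ. Dut was lower in HeOuJ, while its HeJ change of 0.32 (SE 0.60) was smaller than its SE and its HeJ arrays overlapped. Cdc6 was higher in HeJ, while its HeOuJ change of 0.12 (SE 0.41) was smaller than its SE and its HeOuJ arrays overlapped. The difference was above 0 for 9 of 11 clamp and strand genes (median 0.33), 3 of 5 polymerase and primase genes (0.56), 8 of 13 licensing genes (0.29), 2 of 5 nucleotide genes (-0.09) and 3 of 7 G1/S genes (-0.06).

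Neighbouring parts of the cell cycle were read from 5 further lists. Of 18 other replication factors tested, 12 were higher in ozone in the mean of both strains (median log2 change 0.13). Rnaseh2a, which cuts RNA from RNA-DNA hybrids, had 0.58 (SE 0.28), Pole4, of polymerase epsilon, 0.53 (SE 0.29), and Rfc5, of the clamp loader, 0.26 (SE 0.17). Of 18 other nucleotide synthesis genes 12 were higher (median 0.11). Among them Impdh1, of guanine nucleotide synthesis, ran the other way at -0.76 (SE 0.17, adjusted p 0.265 in limma), with Adss at 0.30 (SE 0.15) and Dck at 0.22 (SE 0.15). Of 18 S phase chromatin and checkpoint genes 15 were higher (median 0.16), with the histone chaperone gene Asf1a at 0.43 (SE 0.14), the checkpoint kinase gene Chek1 at 0.93 (SE 0.42) and Uhrf1, which carries DNA methylation through replication, at 1.00 (SE 0.45).

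Of 19 genes of the E2F and RB families, S phase cyclins and CDK inhibitors, 11 were higher (median 0.12). Cks1b, a small partner of cyclin-dependent kinases, had 1073 and 1067 in HeOuJ ozone, against 461 and 372 in HeOuJ air, and 620 and 531 in HeJ ozone, against 416 and 331 in HeJ air. All its ozone arrays were above all its air arrays, with a mean log2 change of 1.00 (SE 0.17, adjusted p 0.177 in limma). Cyclin A gene Ccna2 had 0.80 (SE 0.19, adjusted p 0.273 in limma) and the E2F target Mybl2 0.52 (SE 0.20, adjusted p 0.469). No gene of the 5 lists passed in limma for the mean of both strains.

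Mitosis genes, the next stage of the cycle, had larger median changes with ozone than the replication genes. Of 26 tested, 21 were higher in HeOuJ ozone (median log2 change 0.68) and 23 in HeJ ozone (0.34), and the median in the mean of both strains was 0.61 against 0.24 for the 41 replication and G1/S genes. Kif20a and Kif22, kinesins of the spindle, had mean changes of 1.95 (SE 0.31) and 0.90 (SE 0.16), and Top2a, which untangles sister chromosomes, 1.19 (SE 0.23). Their adjusted p-values in limma were 0.124, 0.179 and 0.241. The replication and mitosis lists share the same 8 arrays, and the difference between their medians was not tested.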

How the data were processed

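The deposited intensity values, 1 per probe set and array for 12488 probe sets, had a 2% trimmed mean of 800.39 to 800.41 on every array, so the authors had scaled them to a common level before deposit; which software did this is not given in the sources used. Computed from them: 66 controls were set aside, values below the 20th percentile of all values (69.63) were raised to it and put on the log2 scale. A probe set was tested if it exceeded that floor on 2 or more of the 8 arrays, which kept 10953 and left out 1469. Gene names came from the array's platform annotation of GEO, which can be old: 10833 probe sets had 1 gene, 396 several and 1193 none.

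The limma package (3.58.1, R 4.3.3) fitted 1 model of 4 group means to all 8 arrays, with lmFit, contrasts.fit and eBayes with trend, and 4 residual and 4.54 prior degrees of freedom. Adjustment of p-values was by Benjamini-Hochberg over all probe sets tested, at a threshold of 0.05. The number of arrays limits the precision. A gene is represented by its tested probe set of highest mean log2 level, and a separation of groups was read from the floored values.

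The genes, their roles and the further lists were chosen with earlier results of these data known. Values on every array were given for the 3 genes of smallest p for the mean ozone effect in each role, the 3 of smallest p in each other comparison and their other probe sets, and 3 genes were named from each further list. Mcm5, Gmnn, Tk1, Cdc45, Cdt1 and Mcm4 were added after their values were seen, as were some values of Orc2, Rpa2, Rpa3 and Lig1. The names 1a and 1b were not taken to pair arrays: deviations of arrays of the same name correlated at -0.01 to 0.14 between groups. Alternatives covered normalisation, floor, filter, variance trend, arrays in the fit, a block, the actin ratio, the choice of probe sets and leaving out each array. Promoter letters and figures used Python 3.11.15, pandas 2.3.3 and matplotlib 3.10.9.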

Additional observations from a re-analysis of the deposited data

Results flagged for a closer look

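For 3 of the 54 probe sets tested, the HeOuJ arrays separated one way with ozone and the HeJ arrays the other, without overlap. How many of all probe sets did so was not counted. Over all genes, the HeOuJ arrays did not overlap for 22.9% higher and 20% lower in ozone, and the HeJ arrays for 18.5% and 17.1%. The 3 are therefore listed as cases and not as an excess. Orc4 had a difference of the ozone effects, HeOuJ minus HeJ, of -1.54 (log2, SE 0.52), with an unadjusted p of 0.0165 and an adjusted p of 0.33 in limma. Gmnn had a difference of 1.23 (SE 0.63, adjusted p 0.512 in limma), and the HeJ part of it was small, at 191 and 166 in ozone, against 203 and 209 in air. The second probe set of Pola2, 161739_r_at, had a difference of 1.81 (SE 0.59, adjusted p 0.317 in limma), while the brighter probe set of the same gene had 0.56 (SE 0.34). None of the 3 differences passed the threshold.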

How the results depend on the processing

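Of 754 values recomputed for 42 results, 717 were labelled the same. For a gene this meant the same direction and side of the threshold, whatever the size. The HeOuJ change of Pold2 with the actin ratio (0.017) was thus labelled the same. For a median it meant a move by less than the spread between arrays of a group (0.05, log2). As no probe set of these genes passed in the main fit, few values could change their side of the threshold. The cause of the other changes was not tested except where named. With the floor at the 5th percentile 1 probe set passed between the strains in ozone (Pold2, adjusted p 0.0461 in limma). Among probe sets above the median level, 23 of the listed genes', fewer tests were adjusted for and 2 passed in HeOuJ (Pold2, adjusted p 0.0325, and Mcm7, 0.0378 in limma) and 1 between the strains in ozone (Pold2, 0.017), while the medians over 20 genes were 0.21 in HeOuJ and 0.14 for the mean of both strains. The median between the strains in ozone was 0.037 with quantile normalisation and 0.18 with each gene's probe sets averaged, which put the difference of the ozone effects at 0.24. Without the filter the HeJ median was 0.085, since genes at the floor entered it. The actin ratio differed mainly between groups, so a fit with it rests mostly on the 2 HeJ air arrays. The actin ratio as a covariate left a HeOuJ median of 0.22 and 26 of 41 genes higher, in place of 33, in the mean of both strains. It reversed the mean ozone change of Pold2 (-0.56), Pola2 (-0.38), Rpa1 (-0.049), Rrm1 (-0.57) and Dut (0.64), and the strain difference in ozone of Pold2 (-0.67) and Dut (1.48), and moved by over 1.5 times the mean change of Cdk2 (0.012), E2f1 (1.15), Pold1 (0.43) and Ccnd1 (0.16), the HeOuJ change of Pold2 (0.017), the difference of the effects of Pold2 (1.15) and Orc4 (-0.88) and the strain difference in air of Orc4 (2.15) and Ung (0.21). Leaving out 1 array in turn gave medians of 0.25 to 0.43 in HeOuJ, 0.12 to 0.17 in HeJ and 0.17 to 0.28 for the mean of both strains, and no listed gene passed. The same fits gave -0.003 (-0.0026) to 0.37 for the difference of the effects, -0.16 to 0.014 for the strains in air and 0.02 to 0.16 for the strains in ozone; the difference lost its sign without HeOuJ air 1a and the strain median in air without HeOuJ air 1b. Among named genes, 1 array moved the mean change of E2f1 (-0.036, without HeOuJ ozone 1a, to 0.53), Rrm1 (0.62 to 1.70), Rrm2 (0.45 to 0.94), Mcm3 (0.23 to 0.68), Cdk2 (0.24 to 0.58), Ccnd1 (0.012 to 0.18), Pold1 (0.061 to 0.46), Pola2 (0.044 to 0.29), Pold2 (0.27 to 0.73), Rpa1 (0.16 to 0.36) and Dut (-1.22 to -0.36), the strain difference in air of Orc4 (0.43 to 1.205) and that in ozone of Dut (-2.30 to -1.10) by over 1.5 times. Restricting the list to plain probe sets, an alternative added after seeing the data, gave a HeJ median of 0.18. With the names 1a and 1b as a replicate block 0 probe sets of these genes passed, the HeOuJ median stayed at 0.34, and no call changed. Signal over background limited Mcm6, Prim2 and Ccne2, which were too dim. It also limited Dut, Prim1 and the second probe sets of Orc2, E2f1, Cdk2 and Tk1, which have bounds only in some comparisons.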
